A study of Homo sapiens with 8 samples.

Results

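Upstream proximal peaks were the accessible regions that lay a short way before the start of a protein-coding gene and outside every annotated gene. A peak was taken when its summit, the position of highest signal, lay on chromosomes 1-22, 1 to 10 kb upstream by strand of the canonical transcription start site (TSS) of a coding gene of GENCODE 44, in no annotated gene body and more than 1000 bp from the start of any annotated transcript. Of 59106 peaks on these chromosomes, and 60628 in the whole list, 2014 met the rule (3.41%, exact 95% binomial interval 3.26 to 3.56%). The other peaks were 20621 within 1000 bp of a transcript start (transcript start peaks), 25097 in a gene body and 11374 in other intergenic sequence.

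The peaks came from bulk ATAC-seq of HepG2, a human liver cancer line, wild type per the labels, which call it hepatocellular carcinoma while the study's abbreviations call it hepatoblastoma. Cells were fixed with formaldehyde (FA) at 0.1, 0.5, 1 or 5% and then cryopreserved in DMSO freezing medium or flash-frozen, which gave 8 libraries, 1 for each combination. The study asked how fixation and freezing alter the accessibility signal. Only the peak list of the library with 0.1% FA and cryopreservation was analysed here, so there is no comparison between conditions, no spread between replicates and no test; intervals are exact, at a 95% level, and cover counting error only. The hepatic label was checked at gene starts, where 62.5% of all coding genes had a peak within 1000 bp of the canonical TSS. Such a peak was present at 22 of 27 plasma protein genes and 21 of 24 liver transcription factor genes, but at 10 of 26 genes of adult hepatocyte metabolism. It was present at 24 of 24 housekeeping genes, 2 of 24 blood cell genes, 3 of 19 neuron genes, 6 of 24 skeletal and heart muscle genes and 2 of 22 genes of other liver cells. All 12 gene lists, counted on chromosomes 1-22, had been written with earlier results of these data known.

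ATAC-seq uses the Tn5 transposase, which inserts adapters where DNA is free of nucleosomes, so that a peak marks an accessible stretch. Upstream of a gene such stretches are often enhancers, elements that bind sequence-specific factors and raise transcription of a nearby gene, or sites of the architectural protein CTCF, which insulates neighbouring domains. In hepatocytes, enhancers are known to be bound by HNF4A, HNF1, FOXA, CEBP and NR5A2 proteins, which maintain the expression of plasma proteins and metabolic enzymes. An accessible region does not by itself show which gene it serves, and a peak is assigned here to a gene by distance only.

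The sequences of 101 bp centred on the summit are shown for peaks on which the results turn, on the plus strand of GRCh38. The first set holds the strongest peaks upstream of hepatocyte genes that had no peak at their own TSS: ITIH1 and ITIH2, which encode heavy chains of the inter-alpha-trypsin inhibitor, FGB, the fibrinogen beta chain, TAT, the tyrosine aminotransferase, and NR1H4, the bile acid receptor. Capitals mark a match to a searched motif on either strand, which were CAAAGTCCA (HNF4A) at ITIH1 and none of 22 motifs in the other windows of this set.
ITIH1, chr3:52775574-52775674: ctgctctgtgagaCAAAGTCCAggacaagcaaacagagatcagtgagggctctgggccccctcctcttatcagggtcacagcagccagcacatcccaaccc
ITIH2, chr10:7700700-7700800: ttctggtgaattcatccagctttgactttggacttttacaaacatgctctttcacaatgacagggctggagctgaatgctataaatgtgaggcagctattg
FGB, chr4:154560256-154560356: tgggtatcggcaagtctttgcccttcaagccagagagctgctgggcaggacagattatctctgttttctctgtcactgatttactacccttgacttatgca
TAT, chr16:71581944-71582044: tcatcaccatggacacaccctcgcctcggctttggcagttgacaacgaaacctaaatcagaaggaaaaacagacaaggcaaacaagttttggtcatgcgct
NR1H4, chr12:100464740-100464840: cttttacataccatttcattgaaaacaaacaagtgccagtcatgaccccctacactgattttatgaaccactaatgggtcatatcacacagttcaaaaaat

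The next set shows, for motifs of hepatocyte factors, the upstream proximal peak with the highest fold that held a match, so that the letters behind the motif counts can be seen. Capitals mark CAAAGTCCA (HNF4A) and CAGCTG (MYOD, a muscle factor) upstream of DNAAF2, TGTTTAC (FOXA) upstream of TM4SF19, GTTAATNAT (HNF1, here on the minus strand) upstream of H1-2, TCAAGGTCA (NR5A2) upstream of ALDH1B1 and GGTCANAGG (DR1, the direct repeat read by several nuclear receptors, here on the minus strand) upstream of CPT1A.
DNAAF2, chr14:49641976-49642076: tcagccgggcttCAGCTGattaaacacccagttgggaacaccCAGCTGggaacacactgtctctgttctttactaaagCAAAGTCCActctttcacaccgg
TM4SF19, chr3:196347425-196347525: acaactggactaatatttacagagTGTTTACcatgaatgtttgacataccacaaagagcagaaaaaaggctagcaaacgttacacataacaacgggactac
H1-2, chr6:26066070-26066170: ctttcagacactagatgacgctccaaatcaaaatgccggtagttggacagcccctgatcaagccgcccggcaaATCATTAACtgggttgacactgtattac
ALDH1B1, chr9:38386476-38386576: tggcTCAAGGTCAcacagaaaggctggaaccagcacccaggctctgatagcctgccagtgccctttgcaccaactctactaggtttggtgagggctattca
CPT1A, chr11:68845543-68845643: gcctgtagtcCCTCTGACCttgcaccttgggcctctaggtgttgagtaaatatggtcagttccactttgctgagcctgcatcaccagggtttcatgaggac

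The last set holds the strongest upstream proximal peak with a CTCF match and one that carried both a CTCF and an NFI match, since CTCF gave the largest motif difference, followed by the strongest peak with an AP-1 match and 2 of the 10 peaks with the highest fold. Capitals mark the CTCF match in the first 2 windows, with AGATAAG (the motif of GATA factors, here on the minus strand) in the window upstream of ENSG00000188897, a coding gene without a symbol, and the NFI match upstream of DNAJB12. In the next 2 windows they mark TGANTCA (AP-1) upstream of OBSL1 and CCAATCA (NFY) with GAGGAAGT (PU.1, on the minus strand) upstream of FOXJ2, while the window upstream of UTS2R held no match.
ENSG00000188897, chr16:11532289-11532389: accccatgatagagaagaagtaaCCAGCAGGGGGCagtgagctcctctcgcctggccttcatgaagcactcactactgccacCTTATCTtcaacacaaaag
DNAJB12, chr10:72364406-72364506: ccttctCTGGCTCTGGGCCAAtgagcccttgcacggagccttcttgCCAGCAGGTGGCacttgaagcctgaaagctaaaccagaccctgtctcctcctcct
OBSL1, chr2:219577092-219577192: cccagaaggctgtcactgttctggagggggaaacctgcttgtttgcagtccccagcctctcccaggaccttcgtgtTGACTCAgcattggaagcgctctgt
FOXJ2, chr12:8026662-8026762: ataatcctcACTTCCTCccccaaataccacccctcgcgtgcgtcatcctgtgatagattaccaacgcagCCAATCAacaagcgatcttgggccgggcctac
UTS2R, chr17:82367937-82368037: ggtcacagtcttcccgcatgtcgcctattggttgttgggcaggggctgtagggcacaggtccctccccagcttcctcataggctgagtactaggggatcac

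Upstream proximal sequence was rich in peaks relative to other intergenic sequence. The 66.96 Mb in which a summit could meet the rule held 30.1 peaks per Mb (28.8 to 31.4), against 11.8 per Mb in other intergenic sequence, a ratio of 2.54 (2.42 to 2.67). It was below the 102 per Mb found within 1000 bp of transcript starts and above the 16.5 per Mb of gene bodies. The excess over intergenic sequence was not particular to the upstream side. Intergenic sequence 1 to 10 kb beyond the 3′ ends of coding genes held 32.8 peaks per Mb (31.3 to 34.3), and the upstream density was 0.918 times that value (0.862 to 0.977). Without these downstream flanks, other intergenic sequence held 10.5 per Mb.

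Within the range, density did not decline steadily away from the start. It was 27.4 per Mb (25.6 to 29.3) at 1 to 5 kb and 32.4 per Mb (30.6 to 34.4) at 5 to 10 kb, so the farther part of the range was the denser, with intervals that did not overlap. Divided at 3 kb instead, it was 30.1 per Mb on both sides (27.5 to 33.0 at 1 to 3 kb and 28.6 to 31.6 at 3 to 10 kb). Among bins of 1 kb it was lowest at 4 to 5 kb, with 23.1 per Mb (19.8 to 26.7), and highest at 6 to 7 kb, with 35.2 per Mb (31.0 to 39.8). These intervals did not overlap, but the bins were picked as the extremes after the counts were seen, so no difference is inferred between them. Outside the rule, at 10 to 20 kb upstream, the density was 29.6 per Mb (28.3 to 31.1), and at 20 to 30 kb it was 27.1 per Mb (25.7 to 28.7). The density thus did not fall off at the limit of 10 kb. The member nearest to its gene was 1009 bp upstream of LENG9, with a fold of 13.8, and the farthest was 9987 bp upstream of CNIH1, with a fold of 11.5, while the first peak beyond the limit was 10007 bp upstream of NFIX, with a fold of 8.91.

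**Figure D1:**
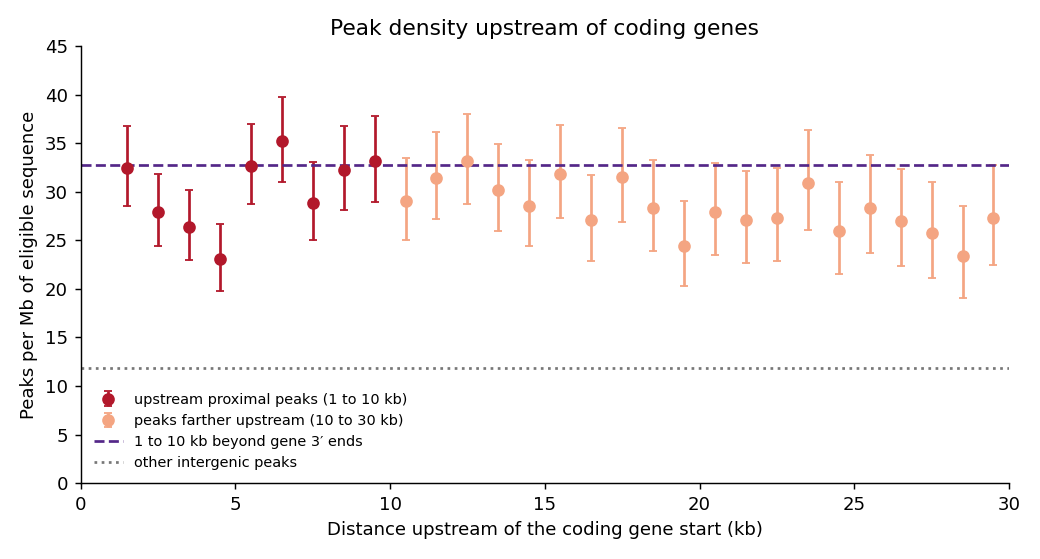
Peaks per Mb of eligible sequence (y axis) against distance upstream of the coding gene start in kb (x axis), in bins of 1 kb with exact 95% Poisson intervals; red points are upstream proximal peaks, orange points peaks at 10 to 30 kb, and the lines give the density 1 to 10 kb beyond gene 3′ ends (dashed) and in other intergenic sequence (dotted). The red points lie between 23.1 and 35.2 per Mb, all above the dotted line at 11.8 per Mb.

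Chromosomes differed in the density of such peaks upstream of their genes. Counting pairs of a peak and a gene over the eligible sequence of each gene, the density ran between 16.0 pairs per Mb on chromosome 21, with 14 pairs, and 55.1 per Mb on chromosome 22, with 89 pairs. Chromosomes 17, 20, 19 and 14 followed with 44.5, 42.9, 40.8 and 40.5 pairs per Mb, and chromosome 1, which held the most members (232), had 28.5 per Mb. Set against the number of coding genes, members came to 17.23, 16.85 and 14.08% on chromosomes 22, 20 and 17. By that count chromosomes 19 and 14, with 10.84 and 11.36%, were near chromosome 1, with 11.26%. The median local background at the members was highest on chromosome 20 (1.29 fragments) and second highest on chromosome 22 (0.935 fragments), against 0.679 fragments over all members. It was 0.742 and 0.752 fragments on chromosomes 17 and 19 but 0.658 on chromosome 14. Chromosomes 7 and 9, with 0.820 and 0.804 fragments, had 26.8 and 28.5 pairs per Mb, and chromosome 16, with 0.846 fragments, had 37.4. Copy number was not examined, so its part in these densities was not tested.

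Upstream proximal peaks were low peaks in fold enrichment, the ratio of the signal at the summit to the local background. Their median fold was 9.48 (quartiles 7.32 and 13.1), against 13.6 for transcript start peaks, 9.80 for gene body peaks and 9.76 for other intergenic peaks. A fold of at least 20 was reached by 104 of the 2014 (5.16%, 4.24 to 6.22%), whereas 23.8% of transcript start peaks, 7.68% of gene body peaks and 7.45% of other intergenic peaks reached it, and 13.2% of all peaks. Their intervals did not overlap with those of gene body peaks (7.36 to 8.02%) or other intergenic peaks (6.97 to 7.95%). Peaks of such a fold were thus rarer here than in any of the other classes. By significance this was not so. A -log10 q of at least 20 was reached by 35.0% of members (32.9 to 37.1%). It was reached by 33.7% of gene body, 32.8% of other intergenic and 62.7% of transcript start peaks. Widths were alike among the classes away from starts, with a median of 153 bp, against 158 bp in gene bodies, 155 bp in other intergenic sequence and 221 bp at transcript starts.

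In absolute signal the order was different. The number of fragments covering a summit, solved as a whole number from the deposited fold and p-value, had a median of 17 (quartiles 11 and 27), against 30 at transcript starts, 14 in gene bodies and 13 in other intergenic sequence. More fragments than the median of all peaks were found at 48.3% of members (46.1 to 50.5%), at 37.1% of gene body peaks (36.5 to 37.7%) and at 34.7% of other intergenic peaks (33.8 to 35.6%). Upstream proximal summits thus carried more fragments than other summits away from starts but had no higher fold. The local background of the caller, which divides the signal in the fold, had a median of 0.679 fragments at members, against 1.26 at transcript starts, 0.397 in gene bodies and 0.366 in other intergenic sequence. It was 1.20 fragments for the 474 members at 1 to 3 kb and 0.585 for the 1540 at 3 to 10 kb, and the median number of fragments was 20 at 1 to 3 kb and 16 at 3 to 10 kb. At most 10 fragments were found at 471 member summits (23.4%), against 10.2% of transcript start, 33.9% of gene body and 35.8% of other intergenic summits.

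**Figure D2:**
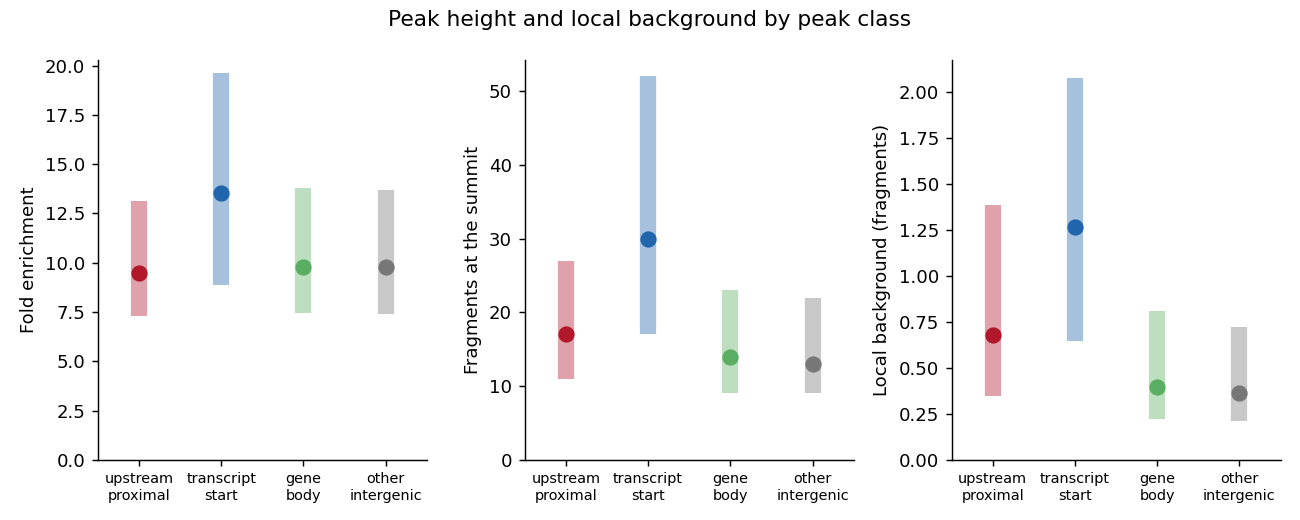
Fold enrichment, fragments at the summit and local background in fragments (y axes) for upstream proximal, transcript start, gene body and other intergenic peaks (x axes); points are medians and bars run between the quartiles. Upstream proximal peaks have a median fold of 9.48, near that of the other classes away from starts, while their medians of 17 fragments and of 0.679 background fragments lie between those classes and transcript start peaks.

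The 10 members with the highest fold were upstream of genes of diverse function. The highest, 7278 bp upstream of ARHGAP18, a GTPase-activating protein, had a fold of 32.3 with 67 fragments. The next were upstream of PLEKHO2 (29.7, also upstream of the overlapping ENSG00000249240), SLC22A7 (29.6), MIPOL1 (29.5) and UTS2R (29.4). SLC22A7 encodes an organic anion transporter of liver and kidney and UTS2R the receptor of the peptide urotensin. Those upstream of ZBTB32, a zinc finger repressor known from lymphocytes, HMX2, a homeobox factor known from the inner ear, FOXJ2, a forkhead factor, LTN1, a ubiquitin ligase of ribosome quality control, and GOLGA6D, a member of a golgin family with many copies, had folds between 28.3 and 28.7. Of these 10 peaks, those of UTS2R, ZBTB32 and GOLGA6D were upstream of a gene with no TSS peak, and at the other 7 the fold at the TSS was lower than upstream, between 6.91 at HMX2 and 31.2 at ARHGAP18. The peaks were chosen for a high upstream fold, so this order was largely set by the choice. Over all 1227 genes with both peaks, the upstream fold was the higher at 23.3%. The 50 bp at the summit of the MIPOL1 peak occurred 7 times in hg38; whether this affected the placing of its fragments was not tested. Among all members 53 (2.63%) had such a repeated summit sequence, among them 3 of the 104 with a fold of at least 20.

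The peak with the most fragments was not among those of the highest fold. The most fragments at a summit, 143, were found 2579 bp upstream of JPH4, a junctophilin gene named after its value was seen, at a fold of 9.96 and with no TSS peak. The peak 5603 bp upstream of OBSL1, a cytoskeletal adaptor, had 131 fragments and the largest -log10 q of all members, 132.3, at a fold of 23.3.

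An upstream proximal peak was present for a minority of the genes that could have one. Of 19111 coding genes, 11018 had eligible sequence 1 to 10 kb upstream, and 1899 of these (17.2%, 16.5 to 18.0%) had at least 1 peak there. Most had 1 peak (1627 genes), 238 had 2, 33 had 3 and LAMA5 had 5. In turn 1835 peaks were upstream of 1 gene, 166 of 2, 12 of 3 and 1 of 4, the genes RNF208, CYSRT1, RNF224 and SLC34A3. Neighbouring peaks of 1 gene were spaced by a median of 2036.5 bp.

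Genes with an accessible start more often had an upstream peak as well, a difference that came with peaks at 5 to 10 kb. Of the 6528 genes with eligible sequence and a TSS peak, 18.8% (17.9 to 19.8%) had an upstream proximal peak, against 15.0% (13.9 to 16.0%) of the 4490 without a TSS peak. Seen from the other side, 64.6% (62.4 to 66.8%) of the 1899 genes with an upstream peak had a TSS peak, against 58.1% (57.1 to 59.2%) of genes without one and 59.2% of all genes with eligible sequence. The excess was thus a few percentage points, and 672 genes had an upstream peak and no TSS peak. It was not present for the nearest peaks. Of the 833 genes with a peak at 1 to 5 kb, 57.1% (53.7 to 60.5%) had a TSS peak, against 59.0% (58.0 to 60.0%) of genes with eligible sequence there and no such peak, whereas at 5 to 10 kb, a range chosen after seeing the data, it was 69.5% (66.8 to 72.1%) of 1191 genes, against 57.1% (56.0 to 58.2%). Per Mb of eligible sequence the numbers were 34.4 pairs (32.6 to 36.2) for genes with a TSS peak and 25.5 (23.8 to 27.4) for genes without. The local background differed in the same direction, with a median of 0.898 fragments at the 1305 members assigned to a gene with a TSS peak and 0.460 at the other 709; its part in the number of calls was not tested.

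The height of the upstream peak did not follow that of the start. Over the 1227 genes with both, the Spearman correlation between the highest upstream fold and the TSS fold was -0.02 across genes of this 1 library. The upstream peak had the higher fold at 286 of these genes (23.3%), and the medians were 9.77 upstream and 16.6 at the TSS. At some genes both values came from 1 peak, whose summit lay just beyond 1000 bp and whose edge reached the TSS window. Examples, named after their values were seen, were LRMDA (1096 bp, fold 9.48) and PWWP2B (1058 bp, fold 15.4). Across the 2014 members, distance to the start was weakly related to fold (Spearman 0.09) and to GC content (-0.12), and GC content was weakly related to fold (0.12). Fold and -log10 q share the same fragments and background, so no correlation between them is given.

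Genes of secreted plasma proteins had upstream proximal peaks at a higher share than coding genes in general. Of 16 plasma protein genes with eligible sequence, 9 had at least 1 (56.3%, 29.9 to 80.3%), beside 17.2% of all coding genes with eligible sequence. These 9 genes had 14 peaks in total, or 140 per Mb (76.8 to 236), against 30.7 per Mb over all genes. The list is short and 3 of its genes, FGA, FGB and FGG, are neighbours on chromosome 4, so its genes are not independent of each other. Of 12 housekeeping genes, all with a TSS peak, 0 had an upstream proximal peak, which allows a share of up to 26.5%.

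The fibrinogen genes encode the 3 chains of the clotting protein and all had upstream peaks. FGB had 3 peaks, with folds of 13.1, 15.1 and 8.16 at 3386, 2705 and 2102 bp upstream, and no TSS peak. The first 2 were also upstream of PLRG1, a splicing factor gene on the other strand, whose TSS had a peak with a fold of 34.3. FGG had 1 peak of fold 16.8 at 5267 bp, level with its TSS peak (16.6), and FGA had 1 of fold 11.7 at 7497 bp, below its TSS peak (25.4). The 3 genes thus differed in whether a TSS peak was called and, where one was, in how its fold compared with that upstream.

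ITIH1 and ITIH2, on different chromosomes, resembled FGB in having peaks only away from the TSS. ITIH2 had a broad peak of 537 bp with a fold of 18.0 and 56 fragments at 2566 bp, and a second of fold 6.40 at 6562 bp. ITIH1 had 1 peak of fold 15.7 with 44 fragments at 1975 bp, the one with the HNF4A match printed above, which was also 4684 bp upstream of NEK4, a kinase gene with a TSS peak of fold 18.3. AMBP, which encodes the precursor of bikunin, the light chain of the same inhibitor, had 3 peaks with folds of 8.63, 9.70 and 8.85 and 48 to 53 fragments each between 2778 and 4350 bp, beside a TSS peak of fold 9.96. APOB, the protein of low density lipoprotein, had 1 of fold 13.5, SERPINC1, antithrombin, 1 of fold 11.3 and APOE, a protein of lipoprotein particles, 1 of fold 6.62. AMBP, APOB, SERPINC1, APOE and FGA were named after their values were seen, to complete the list. The plasma protein genes with eligible sequence and no upstream peak were ALB, HPX, APOA2, RBP4, ORM1, F2 and PLG. Little of the range was eligible at APOA2 (307 bases) and ALB (1827 bases). The others had between 4995 bases (HPX) and 9000 bases (ORM1).

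Iron handling genes gave a similar share, with 6 of 10 (60.0%, 26.2 to 87.8%) and 8 peaks. FTH1, the ferritin heavy chain, had 3 peaks, of fold 6.19, 10.1 and 6.74 at 4483, 5505 and 7747 bp, of which the middle one held both an HNF4A and a FOXA match. BMP6, the ligand that signals iron load to hepatocytes, had 1 of fold 10.6 at 2900 bp, and ID1, an inhibitor of DNA binding induced by that signal, 1 of fold 14.7 with 74 fragments at 9098 bp. HFE, the haemochromatosis protein, had 1 of fold 14.9 at 9172 bp, whose summit sequence occurred 3 times in hg38. SMAD7, an inhibitor of BMP signalling, and FTL, the ferritin light chain, had peaks of fold 6.07 and 6.40 and were named after their values were seen. Among the 6 genes the fold upstream was above that at the TSS at ID1 (14.7 and 10.1), and HFE and SMAD7 had no TSS peak.

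The other hepatic lists did not stand apart in number. Liver transcription factors had 3 of 12 (25.0%, 5.49 to 57.2%): NR1H4, with 1 peak of fold 10.8 and 12 fragments at 9076 bp and no TSS peak, CEBPA, a regulator of hepatocyte genes, with 1 of fold 8.10 at 8982 bp, and PPARA, the receptor that governs fatty acid oxidation, with 1 of fold 8.05 at 2794 bp. Adult hepatocyte metabolism had 2 of 17 (11.8%, 1.46 to 36.4%). These were TAT, with 1 peak of fold 14.8 and 33 fragments at 4902 bp and no TSS peak, and ASS1, an enzyme of the urea cycle, with 1 of fold 5.57. The fetal liver list had 1 of 7, KRT19, a keratin of bile duct cells, with a fold of 5.19. Cholesterol synthesis and SREBP had 2 of 9, among them SREBF1, which encodes the regulator of lipid synthesis, with 1 peak of fold 15.3 and 58 fragments, above its TSS fold of 10.7.

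Lists of other tissues and of stress genes also held some. Neuron genes had 4 of 12 (33.3%, 9.93 to 65.1%), each without a TSS peak. GRIN1, a subunit of the NMDA receptor, had the highest, with a fold of 22.5 and 46 fragments at 9367 bp, followed by SLC17A7, a vesicular glutamate transporter, with 12.1 and 9.05, CAMK2A with 8.44 and RBFOX3 with 6.69. Both SLC17A7 peaks were also upstream of ALDH16A1, which had a TSS peak of fold 18.1. Blood cell genes had 2 of 15, ZAP70 (12.2) and CD79A (9.33), muscle genes 1 of 17, CKM (16.1), and genes of other liver cells 3 of 13, PDGFRB (12.4 and 6.47), CDH5 (10.1) and CD163 (8.80), all without a TSS peak. The PDGFRB peaks were also upstream of CDX1, and that of CD79A was also upstream of ARHGEF1, whose TSS had a peak of fold 19.9. Stress and immediate early genes had 4 of 14 (28.6%, 8.39 to 58.1%), and their 14 starts were all accessible. FOS, the AP-1 subunit, had a peak of fold 14.9 at 1629 bp, above its TSS fold of 10.2, GADD45B one of 11.0 at 1435 bp, HSPA1B one of 6.004 that was also upstream of HSPA1L, and FOSL1 one of 5.97. Of the lists, those of plasma proteins and iron handling alone had an interval that lay wholly above 17.2%. TUBB2A, a tubulin gene whose locus the study displayed, had a peak of fold 14.4 and a width of 587 bp at 5217 bp, near the fold of its TSS peak (15.5).

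**Figure D3:**
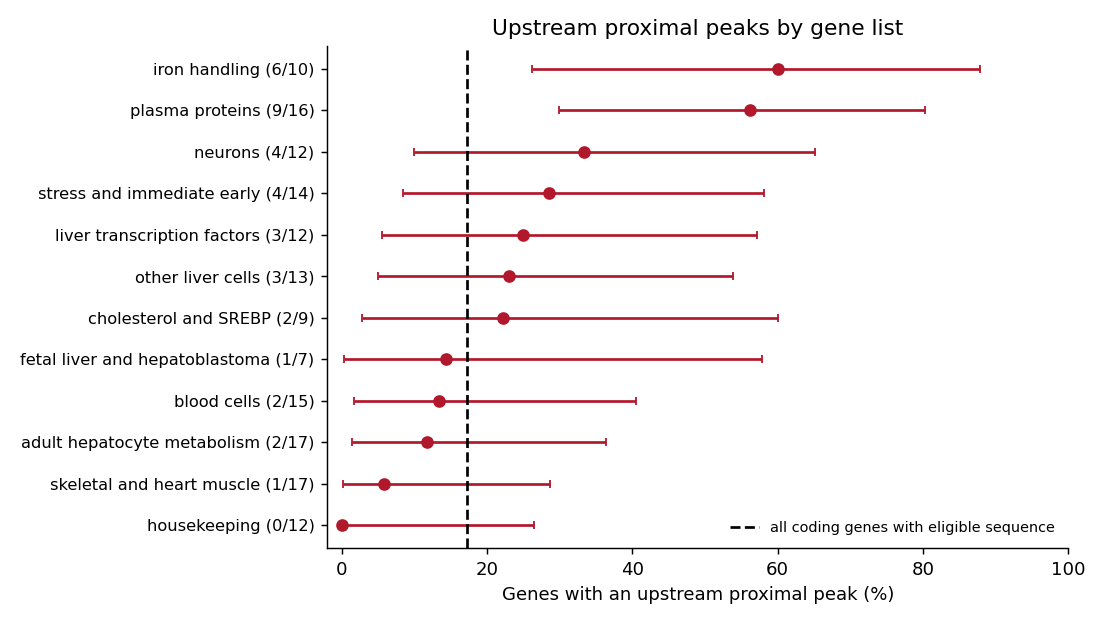
Share of genes with an upstream proximal peak in % (x axis) for 12 gene lists (rows, with the number of genes with a peak over the number with eligible sequence); points are shares, bars exact 95% binomial intervals, and the dashed line is the share over all coding genes with eligible sequence. Iron handling (60.0%) and plasma proteins (56.3%) lie above the line at 17.2% with their whole intervals, and the intervals of the other lists cross it.

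Some genes had several upstream proximal peaks. LAMA5, a laminin chain of basement membranes, had 5, with folds of 10.3, 4.69, 5.64, 6.04 and 24.9 at 1451, 1757, 3821, 8396 and 9314 bp. The farthest of these was the 27th highest of all members and had more than 2 times the fold of the TSS peak (11.7). MBL2, a lectin of innate immunity made by the liver, had 3, with folds of 16.5, 9.23 and 12.6 at 1983, 2555 and 7505 bp, each higher than its TSS peak (4.20). ZNF579, a zinc finger gene, had 3 with folds of 10.5, 9.22 and 15.8, all above its TSS fold of 6.80, and LBHD2 had 3 with folds of 6.53, 17.4 and 7.97 and no TSS peak. In these genes the strongest upstream peak was not the one nearest to the start, except at MBL2.

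**Figure D4:**
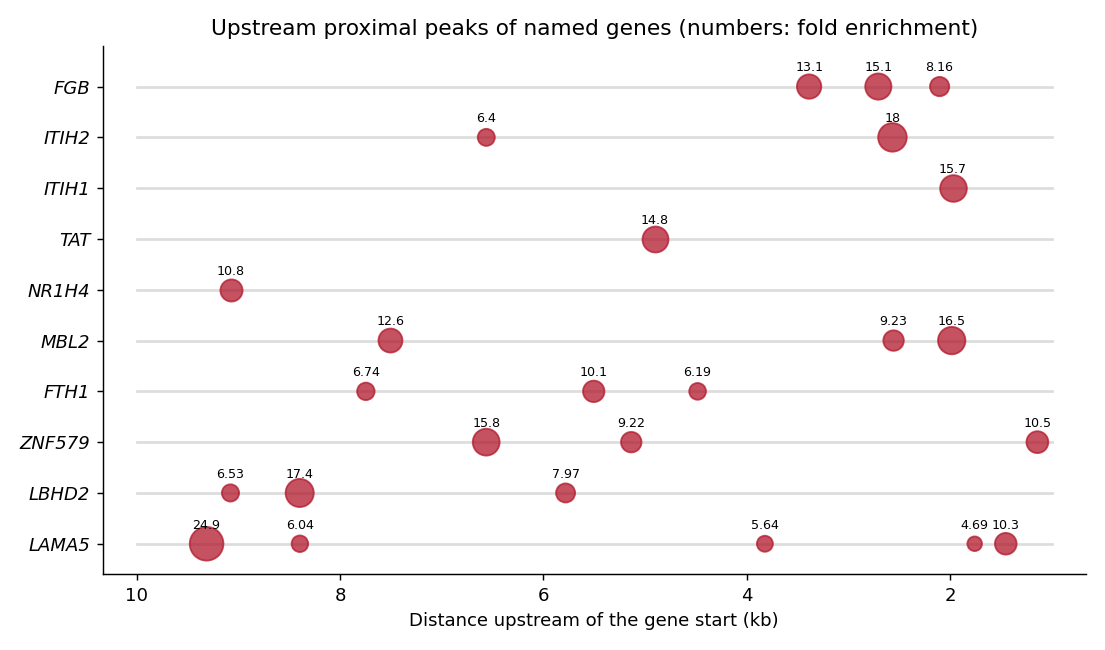
Upstream proximal peaks of 10 named genes (rows) by distance upstream of the gene start in kb (x axis); the area of a circle is in proportion to its fold enrichment, which is printed above it. The 3 peaks of FGB lie within 2102 to 3386 bp of the start, while those of LAMA5 are spread between 1451 and 9314 bp, the farthest having the highest fold (24.9).

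The CTCF sequence was the motif that set summits apart most from their surroundings. It occurred within 50 bp of the summit in 125 members (6.21%, 5.19 to 7.35%), against 0.0497% of windows of the same length centred 2000 bp to either side of the same summits, a ratio of 125 (33.9 to 1044) that rests on 2 control windows. The share was above that at transcript start summits (2.43%), near that at other intergenic summits (6.65%, 6.20 to 7.12%) and 4.50% over all peaks. The match ran on the strand of the gene in 66 of the 125 and on the other strand in 59 (52.8%, 43.7 to 61.8%), so no orientation towards the gene was detectable at this number. Members with a match had a median fold of 10.0, against 9.44 for those without. Their median number of summit fragments was 14, below the 17 of all members. The strongest was the peak upstream of ENSG00000188897 printed above, with a fold of 26.3. The control windows were not free of promoter sequence. For the 474 members at 1 to 3 kb, 1 control window was centred within 1000 bp of the canonical TSS. SP/KLF matched 0.819% of the control windows of members, against 0.328% of those of all peaks. The motif ratios and the GC excess below are relative to such windows, and the effect on them was not tested. The windows were also not matched to the summits in GC content. Motifs differed in how often they matched control windows, with 4.07% for CEBP and 4.69% for MYOD, so ratios of different motifs are not on a common scale.

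Motifs of hepatocyte factors were also more frequent at summits than beside them. CAAAGTCCA (HNF4A) occurred at 25 summits (1.24%, 0.805 to 1.83%), 8.33 times (3.34 to 24.8) the share of the control windows, and at 1.41% of all peaks. TGTTTAC (FOXA) occurred at 81 (4.02%, 3.21 to 4.97%), 4.63 times (3.08 to 7.09) the controls, and at 4.79% of all peaks. GTTAATNAT (HNF1) occurred at 23 (1.14%), 4.60 times (2.11 to 10.8), and at 0.953% of all peaks, and TCAAGGTCA (NR5A2) at 9 (0.447%), 3.60 times (1.08 to 13.7), and at 0.426% of all peaks. Over all peaks the ratios of these 4 motifs to their controls were 11.2, 3.71, 3.12 and 3.15, each within the interval given for the members. TTGCNNAA (CEBP, 6.55% of members and 6.28% of all peaks), GGTCANAGG (DR1, 1.09% and 0.910%) and AGATAAG (the motif of GATA factors, 1.84% and 1.61%) gave smaller ratios, of 1.61 (1.27 to 2.04), 2.10 (1.10 to 4.01) and 2.31 (1.40 to 3.83). Over all peaks these ratios were 1.35, 2.16 and 1.27, of which that of GATA lay below the interval for the members. The intervals of NR5A2, DR1, HNF1, ONECUT, STAT and SP/KLF included equality under some other settings, given at the end. ATTGATT (ONECUT) went the other way, at 0.646% of members and 0.841% of all peaks and 0.448 times (0.225 to 0.828) the controls. Both strands were searched, and since GGTCANAGG and TCAAGGTCA share the letters GGTCA, a window can count under more than 1 motif.

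The strongest examples were not upstream of the listed hepatocyte genes. The peak with an HNF4A match and the highest fold (22.9, 49 fragments) was 6782 bp upstream of DNAAF2, a factor of dynein assembly, that with FOXA (26.1) upstream of TM4SF19, that with HNF1 (28.1) upstream of H1-2, a linker histone gene, and that with NR5A2 (23.9) upstream of ALDH1B1, a mitochondrial aldehyde dehydrogenase. CPT1A, which brings fatty acids into mitochondria, had the strongest DR1 match (15.7) and no peak at its canonical TSS. Peaks with more than 1 kind of the 8 hepatocyte motifs were few, 17 with 2 kinds and 2 with 3. The last 2 were the peak 9487 bp upstream of GUCA1B, a guanylate cyclase activator, with HNF4A, CEBP and GATA matches and a fold of 18.3, and the peak 5809 bp upstream of TMEM37, with DR1, FOXA and CEBP matches and a fold of 7.53. They were named after their values were seen.

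Upstream proximal summits thus resembled other summits away from starts more than they did transcript starts. None of the 8 hepatocyte motifs occurred in 84.1% of members (82.4 to 85.6%), against 92.2% of transcript start peaks, 79.1% of gene body peaks and 79.8% of other intergenic peaks (79.1 to 80.6%). The share of FOXA in members lay below that of gene body peaks (6.38%, 6.08 to 6.69%) and other intergenic peaks (6.60%, 6.15 to 7.08%), and these intervals did not overlap, whereas those of HNF4A did (1.24% of members and 1.83%, 1.59 to 2.09%, of other intergenic peaks). Among members with a fold of at least 20, 26 of 104 (25.0%, 17.0 to 34.5%) held a hepatocyte motif, against 13.5% (11.3 to 16.1%) with a fold of 10 to 20 and 16.8% (14.7 to 19.2%) under 10, so the share did not rise steadily with fold.

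Motifs typical of promoters were rare. CCCCGCCCC (SP/KLF) occurred in 1.49% of members (1.01 to 2.12%), 11.6% of transcript start peaks and 4.60% of all peaks, CCGGAAGT (GABPA) in 0.298%, 3.16% and 1.24%, and GCGCATGCG (NRF1) in 0.0993%, 1.45% and 0.548%. SP/KLF was more frequent at 1 to 5 kb (2.20%, 1.33 to 3.42%) than at 5 to 10 kb (0.956%, 0.478 to 1.70%), with intervals that overlapped. CCAATCA (NFY), which is also a promoter motif, occurred in 2.88% (2.19 to 3.71%) of members, 4.61% of transcript start peaks, 1.88% (1.64 to 2.15%) of other intergenic peaks and 2.69% of all peaks, so that members lay between starts and other intergenic peaks. The factors of stress and growth signalling were represented by TGANTCA (AP-1) in 6.26% of members (5.24 to 7.40%), 2.50 times the controls, and in 5.59% of all peaks, and by CATTCCA (TEAD) in 3.77%, 2.03 times the controls, and in 3.08% of all peaks.

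Of the remaining motifs, CACGTG (MAX/MYC, at 2.83% of all peaks), ATCAAAG (TCF7L2, 2.32%), TTCCNGGAA (STAT, 0.440%) and CAGCTG (MYOD, 7.37%) were more frequent at members than in the control windows, with ratios of 2.08, 2.14, 2.67 and 1.64. The ratios of GAGGAAGT (PU.1, a blood cell factor, at 0.673% of all peaks; 1.70, 0.836 to 3.42), NFI (0.283%; 4.00, 0.573 to 44.2) and AAGATGGCG (YY1, 0.266%; 0.400, 0.00846 to 3.58) had intervals that included equality. The letters CAGCTG are bound by many factors besides MYOD. GC content lay between that of starts and that of other peaks. It averaged 53.4% in the 201 bp around the summit, against 64.4% at transcript starts, 50.0% in gene bodies and 51.3% in other intergenic sequence. Its excess over the control windows was not intermediate. That excess was 5.14 percentage points at members, against 18.1 at transcript starts, 5.22 in gene bodies and 6.89 in other intergenic sequence. The control windows of members averaged 48.2% GC, against 44.8% for gene body peaks and 44.4% for other intergenic peaks.

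**Figure D5:**
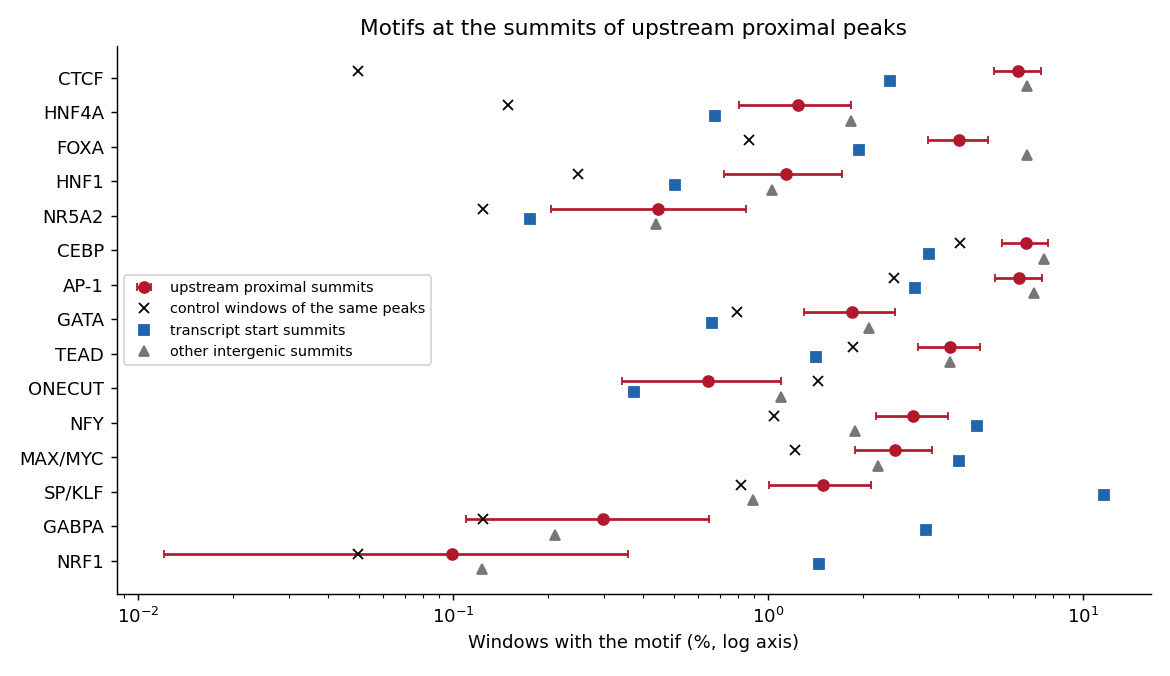
Share of windows with a motif in % (x axis, log axis) for 15 motifs (rows); red circles are upstream proximal summits with exact 95% binomial intervals, black crosses the control windows 2000 bp to either side of them, blue squares transcript start summits and grey triangles other intergenic summits. CTCF is at 6.21% of upstream proximal summits and 0.0497% of their control windows, while SP/KLF is at 1.49% of upstream proximal and 11.6% of transcript start summits.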

How the data were processed

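HepG2 cells fixed with FA were profiled by bulk ATAC-seq, and the peak list of the cryopreserved library with 0.1% FA was used; the other 7 libraries of the series were not analysed here. Groups were taken from the sample titles. According to the methods and the submitters' processing notes, the authors used bcl2fastq, cutadapt for trimming, Bowtie2 in snakePipes for mapping to GRCh38, samtools to remove duplicates, MACS2 to call peaks and deepTools 3.5.5. Not given in the sources used here were the release of MACS2 and any shift of read ends to the Tn5 cut site, which would move summits by a few bases. The names of the peaks mention a short alignment, so the list may rest on part of the fragments, and the depth of the library is unknown.

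The deposited columns of the authors are a score, the fold enrichment at the summit as a ratio to the local background, the -log10 p-value, the -log10 q-value and the summit position, all from the peak caller and on this library alone. The score was not used beyond a check of the columns. Summits were placed on GENCODE 44 and on hg38. Eligible sequence was every base at which a summit would have met the rule. A TSS peak overlapped the 1000 bp to either side of a canonical TSS. Members were not left out, so a member that reached into this window also counted as the TSS peak of its gene. Fragments at the summit (k) and the local background (b) were solved from the deposited fold, (k+1)/(b+1), and the -log10 p of a Poisson count above k; all 59106 peaks gave a whole number, the -log10 p being matched within 0.1%. Motifs were searched on both strands in 101 bp windows, with control windows 2000 bp to either side, and GC content in 201 bp. The 50 bp at each summit were counted over hg38. Classification, motif search and fragment solving were tested on simulated data.

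Named were the 10 peaks with the highest fold, up to 4 genes per list by upstream fold, the 5 genes with the most peaks (LAMA5 and, of those with 3, LBHD2, MBL2, ZNF579 and FGB by their highest fold), genes of hepatic lists with an upstream but no TSS peak, genes the study displayed, and the strongest member per motif; sequences came from the 10 highest peaks, the hepatic genes without a TSS peak and the strongest members per motif. The members, lists, motifs and rules were chosen with earlier results of these data known. Shares carry exact binomial and densities exact Poisson intervals at a 95% level. Alternatives were a -log10 q of at least 10, a range of 1 to 5 kb, a margin of 2000 bp, placing the whole peak, the start of any transcript of a coding gene, motif windows of 25 bp to either side and control windows at 1000 bp; a range of 5 to 10 kb was added after seeing the data. Some items that the rule named are not reported here. Scripts ran in Python 3.11.15 with scipy 1.17.1, pandas 2.3.3, numpy 2.4.6 and, for plots, matplotlib 3.10.9.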

Additional observations from a re-analysis of the deposited data

How the results depend on the processing

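Of 32 recomputed main values 14 stayed within the interval of the reported one (or, for the number of peaks, within 1.5 times it). The density ratio and the GC excess kept their direction. Fold, width and fragments were recomputed for the members only, so their order among the peak classes was not rerun. With a -log10 q of at least 10, the density was 2.68 times that of other intergenic sequence, the median fold 11.3, width 170 bp and summit count 21 fragments, 7.11% had a fold of at least 20, 12.97% of genes had an upstream peak, 61.02% of those had a TSS peak, and GC content exceeded that of control windows by 5.67 points. Over 1 to 5 kb there were 863 peaks, the density ratio was 2.18, the median fold 9.13 with 20 fragments, 2.90% had a fold of at least 20, 8.22% of genes had an upstream peak and 57.1% of those had a TSS peak, against 59.0% of genes without one, which turns that comparison; at 5 to 10 kb, a range chosen after seeing the data, it was 69.5%. With a margin of 2000 bp, 15.3% of genes had one and the GC excess was 5.68 points. Placing the whole peak gave 1966 peaks and any coding transcript start 2279. Of 88 motif ratios 84 stayed within their interval, but some intervals that excluded equality came to include it. These were NR5A2 under each of 4 settings (lowest 1.80, 0.647 to 4.93, with controls at 1000 bp), DR1 at the stricter q (2.00, 0.960 to 4.17) and with motif windows of 25 bp (1.11, 0.293 to 3.69), HNF1 with those windows (2.00, 0.599 to 6.68), STAT with them (1.43), a margin of 2000 bp (2.20) and controls at 1000 bp (2.13), SP/KLF with windows of 25 bp (1.41) and a margin of 2000 bp (1.82), and ONECUT with controls at 1000 bp (0.553, 0.275 to 1.04). Of 12 gene list shares 11 stayed within theirs, and the fetal liver list lost its 1 gene at the stricter q. Repeats were not run because the genome carried no repeat masking. No paired analysis was possible because there was 1 library and the labels carry no replicate numbers. Motifs of few matches have wide intervals.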

Other observations

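Among members whose summit window held 2 kinds of hepatocyte motif, chosen after their values were seen, SPINK1, a trypsin inhibitor gene with no TSS peak, had a peak of fold 21.0 with 36 fragments at 3873 bp upstream that held FOXA and CEBP matches, and a second of fold 6.22 at 6596 bp that held a FOXA match. USP18, a protease of the interferon response, had a peak of fold 16.9 with 44 fragments at 1581 bp with HNF4A and FOXA matches, above its TSS fold of 10.4. GUCA1B, named in the report, had a second peak of fold 8.12 at 3235 bp with FOXA and AP-1 matches and, like SPINK1, no TSS peak.

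The median distance of a match to the summit was 19.5 bp for GATA, 20 bp for FOXA, 23 bp for HNF4A, 24.5 bp for CTCF and 40 bp for ONECUT, in windows that reach 50 bp to either side. The most repeated summit sequence of any member, that of the peak upstream of NUP85, occurred 5755 times in hg38, in a peak of fold 7.46.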
